A study of Eucalyptus urophylla with 24 samples.

Results

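Chloroplasts make part of their own proteins and import the rest, and the nuclear genes for the machinery that does so were examined here in terminal buds and leaves of triploid and diploid *Eucalyptus urophylla*, a fast-growing plantation tree. The genes were taken from the description given with each gene in the deposited table: 30S or 50S ribosomal proteins, translocases of the chloroplast and TIC or TOC proteins, zinc metalloproteases of the FtsH type, Clp proteases and the cell division protein FtsZ. This gave 71 of 26033 genes, namely 8 for 30S and 27 for 50S ribosomal proteins, 9 for the import translocon, 14 for FtsH, 10 for Clp and 3 for FtsZ. The descriptions placed 6 of the 71 in mitochondria only: the 50S protein HLP, an L21-like protein, both copies of FTSH 10, FTSH 4 and the Clp proteolytic subunit 2. These 6 are counted with their class.

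The RNA of terminal buds, young leaves (juvenile leaves in some of the study's wording), fully expanded mature leaves and senescent leaves was sequenced, with 3 libraries for each stage and ploidy, 24 in 8 groups. The labels give poly(A) selection of the RNA, whereas the study's methods name a stranded total RNA kit, and which of these holds is not settled by the files. The comparison between ploidies asks how genome number goes with expression in leaves of different age. No treatment was applied, and the labels give genotype as triploid or diploid only, without the age of the trees. The sample titles begin with EU17 for every triploid library and EU18 for every diploid one. What these codes stand for is not given, and the labels do not say whether the libraries of a group came from separate trees. The spread behind each p-value is therefore that of libraries and may be technical only, and ploidy cannot be told apart from any other difference between the plants sampled. In bulk tissue, fewer cells of a type and less RNA per cell cannot be told apart either.

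As background, plastids carry ribosomes of the bacterial kind, with a small 30S and a large 50S subunit. Most of their proteins are encoded in the nucleus and imported after synthesis in the cytosol. The TOC complex in the outer envelope recognises the precursors with GTPase receptors (TOC159, TOC34 and their relatives) and passes them through the TOC75 channel, and the TIC complex takes them across the inner envelope. FtsH proteases are membrane-bound rings that remove damaged photosystem II proteins in the thylakoid, while Clp is the main soluble protease of the stroma, with a core of ClpP and inactive ClpR subunits fed by a chaperone of the ClpC type. FtsZ proteins are relatives of tubulin that form the ring at which a plastid divides. Leaves are known to build this machinery while they expand and to dismantle chloroplasts as they senesce.

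Total counts lay between 38395755 and 64400745 for the 22 libraries whose counts were used, so counting error was small for all but the lowest members. Diploid senescent leaves had 1 library with counts, so every result of edgeR or DESeq2 for that group rests on 1 library. The levels given are FPKM, fragments per kilobase of gene and scaled to library size, and the tests ran on log2(FPKM + 1) with limma over 19174 genes, those averaging 0.5 FPKM or more. A gene was called when its Benjamini-Hochberg adjusted p was under 0.05 over all genes tested. Of the 71 genes, 70 passed the filter, and the exception was a second FTSHI 5 gene (Eucgr.L03323) with a mean of 0.0198 FPKM. The stage labels went with the summed levels of their markers. For 10 genes of dividing cells the sum was 197.6 to 246.2 FPKM in buds, 151.4 to 194.9 in young leaves and 9.903 to 14.7 in mature and senescent leaves. For 14 senescence genes, 8 of which passed the filter, it was 29290 to 32920 FPKM in diploid and 7389 to 8005 FPKM in triploid senescent leaves. At the other stages the sum of the senescence genes was 183.8 to 2011 FPKM. In mature leaves it was 1849 to 2011 FPKM in the diploid and 514.3 to 552.6 FPKM in the triploid. Gene by gene, 4 of these 8 were higher and 4 lower in triploid senescent leaves (median -0.05), so the sum does not stand for the list. Among the diploid libraries, terminal bud 3 and young leaf 1 and 3 lay further from their group means than the rest, with an SD of their log2 deviations from the group mean of 0.249 to 0.343.

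The 71 genes together were expressed most in young and mature leaves. Their share of all FPKM was 0.495% to 0.574% in terminal buds, 0.834% to 1.07% in young leaves, 0.791% to 1.03% in mature leaves and 0.553% to 0.652% in senescent leaves. The summed level was 3901 ± 187 FPKM (SD, n = 3) in diploid buds, 5739 ± 493 in diploid young leaves, 5916 ± 99.8 in diploid mature leaves and 4548 ± 21.4 in diploid senescent leaves. In the triploid the same sum was 4030 ± 80.3, 6838 ± 177, 6227 ± 73.6 and 3463 ± 75.3 FPKM. The libraries of the ploidies did not overlap from the young leaf on: the triploid sum was the higher one in young and mature leaves and the lower one in senescent leaves. After scaling each library by its median ratio to the others the order in mature leaves turned, to 7290 ± 157 in the diploid and 5992 ± 197 in the triploid, while those of young and senescent leaves stayed. Of the 70 genes, 43 had their highest mean in young leaves in each ploidy, and 42 peaked at the same stage in both. The lowest mean fell in senescent leaves for 35 genes in the diploid and 43 in the triploid.

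**Figure D1:**
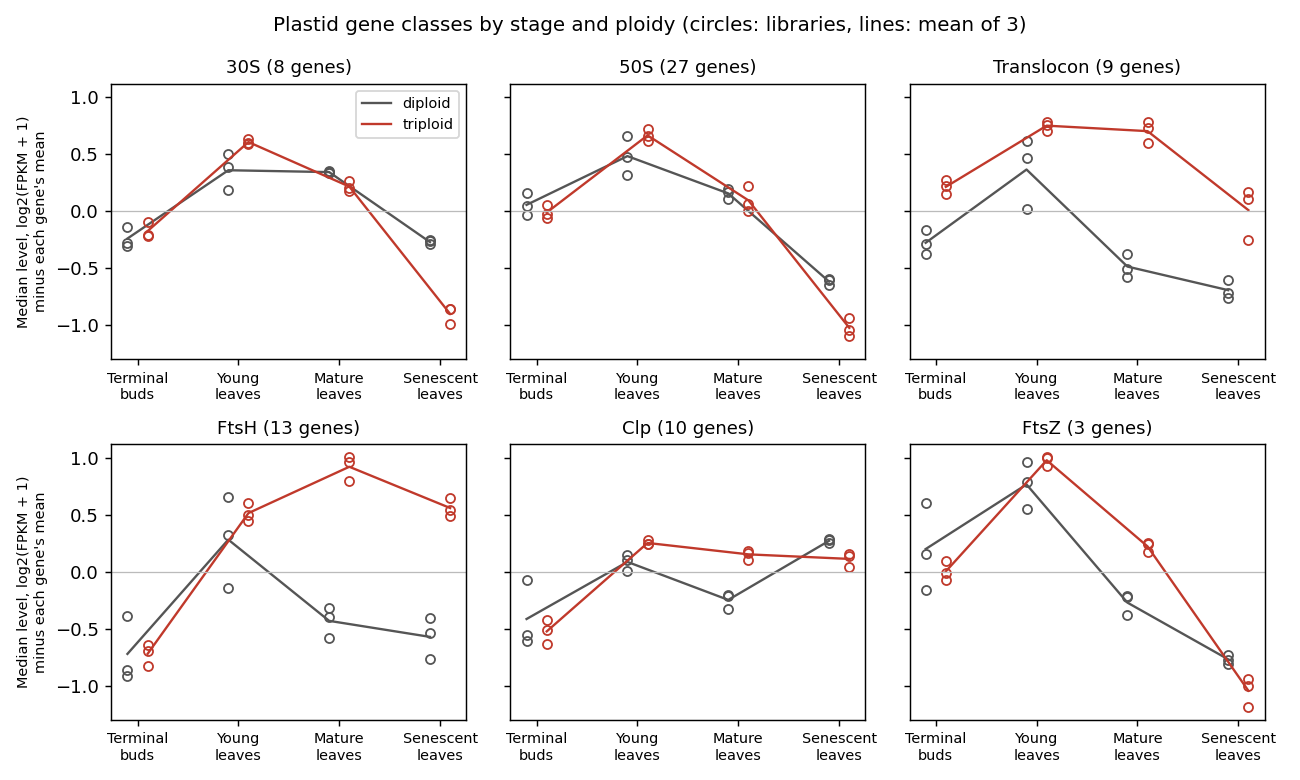
Median relative level of each class (log2(FPKM + 1) minus the gene's mean over 24 libraries) at the 4 stages, with 1 circle for each library, grey for diploid and red for triploid, and lines through the means of 3 libraries. The 30S and 50S medians are lowest in triploid senescent leaves, while the FtsH and translocon medians of mature leaves lie apart between the ploidies.

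Between terminal buds and young leaves most members rose in both ploidies. In the diploid 54 rose and 5 fell, where 33.4% of all genes tested rose and 26.6% fell, and the members' median change was 0.55 on the log2 scale against 0.07 for all genes. In the triploid 57 rose and 6 fell (45.0% and 23.8% of all genes), with medians of 0.74 and 0.23. From young to mature leaves the diploid had 13 higher and 40 lower members, beside 21.0% and 55.6% of all genes. After the same scaling these became 30 and 23, beside 32.2% and 38.0%, since the typical gene was lower in diploid mature leaves as deposited. The triploid had 12 higher and 36 lower members at this step (26.9% and 42.8% of all genes), which became 15 and 28 after scaling (32.5% and 36.8%) and 19 and 24 with each library's trend on gene length taken out (36.1% and 35.5%). At senescence 11 members rose and 33 fell in the diploid (25.3% and 32.4% of all genes), while in the triploid 0 rose and 57 fell (29.0% and 32.1%), with a median of -0.73 against -0.05 for all genes. At an unadjusted p under 0.05 limma gave 1 rise in the triploid at this step, edgeR on the counts called 0, DESeq2 called 1, and 3 were called without the length trend.

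Read as triploid against diploid, the members' balance turned over with age. In terminal buds 16 were higher in the triploid and 7 lower, beside 14.0% and 34.9% of all genes, and the members' median was 0.06 against -0.18. In young leaves 26 were higher and 0 lower (11.4% and 11.9% of all genes, median 0.25 against 0.01), with 0 lower at an unadjusted p under 0.05 in limma and 0 called lower by edgeR or DESeq2. The 26 became 17 with edgeR on the counts and 13 with a replicate block within ploidy. In mature leaves 35 were higher and 15 lower (42.4% and 22.6%, median 0.35 against 0.20). In senescent leaves 19 were higher and 32 lower (40.1% and 20.0%, median -0.15 against 0.17). The deposited values thus placed the typical gene at -0.18 in buds, 0.20 in mature and 0.17 in senescent leaves, and after scaling, which brought these medians to within 0.03 of zero, the counts of members were 34 and 2 in buds (21.7% and 24.4% of all genes), 25 and 26 in mature leaves (30.1% and 33.8%) and 15 and 41 in senescent leaves (29.4% and 30.4%).

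The ploidy difference in mature and senescent leaves also went with gene length, which separates the classes. A length for each gene was read from the ratio of its counts to its FPKM. Its median was 1218 bases for 30S, 1074 for 50S, 1508 for Clp, 2533 for FtsZ, 2950 for translocon and 3580 for FtsH genes, against 1711 for all genes. Over all genes, the log2 difference between ploidies in mature leaves had a median of -0.35 for genes of 500 to 1000 bases, 0.96 for 3000 to 4000 bases and 1.35 above 4000 bases. The same medians were -0.14, 0.77 and 1.14 in senescent leaves. As a description with no test, Spearman's rho between length and difference was 0.54 over all genes and 0.87 over the 70 members in mature leaves, 0.41 and 0.79 in senescent leaves, 0.18 and 0.24 in young leaves and 0.06 and 0.00 in buds, with all points sharing the same libraries. Each ploidy comparison is therefore also given with the length trend of each library taken out, and a member is called in all 3 ways when it passed the test in the same direction as deposited, after scaling and without the trend. Whether library preparation, RNA quality or the tissue produced the trend was not tested.

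**Figure D2:**
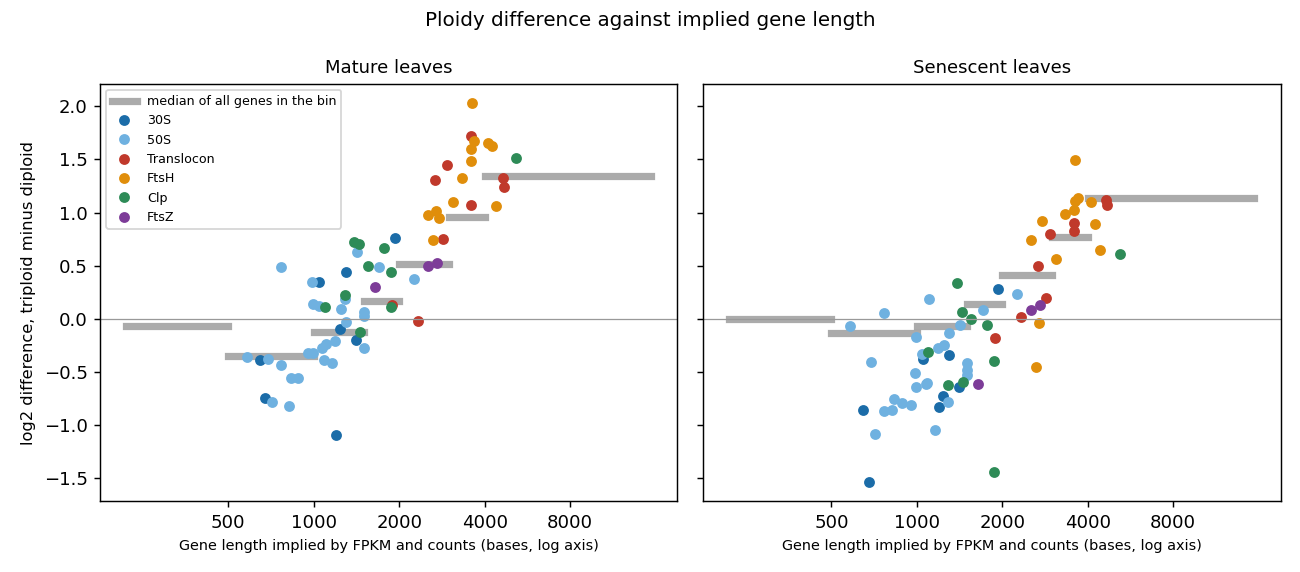
Log2 difference between triploid and diploid (vertical axis) against implied gene length in bases (horizontal log axis) for mature and senescent leaves, with 1 point for each of the 70 members coloured by class and grey bars for the median of all genes in each length range. In mature leaves the members rise with length alongside the grey bars, from -0.35 at 500 to 1000 bases to 1.35 above 4000 bases, and in senescent leaves most 30S and 50S points lie under them.

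By this stricter rule 16 members were higher in triploid buds and 2 lower (14.0% and 22.4% of all genes), 22 were higher and 0 lower in young leaves (9.26% and 10.8%), 19 higher and 6 lower in mature leaves (18.9% and 19.7%), and 5 higher and 29 lower in senescent leaves (21.4% and 18.8%). The 16 in buds held 5 translocon, 6 50S, 1 30S and 1 Clp gene and the 3 mitochondrial FtsH genes. The 50S genes among them included HLP, and the Clp gene was the proteolytic subunit 2, both described as mitochondrial only. The 22 in young leaves came from 5 of the 6 classes (4 30S, 8 50S, 3 translocon, 4 FtsH, 3 Clp). In mature leaves 11 of the 19 were FtsH genes, among them the same 3 mitochondrial ones. In senescent leaves 23 of the 29 were ribosomal proteins (7 30S, 16 50S). Of the 35 ribosomal genes, 12 were thus higher in triploid young leaves and 23 lower in triploid senescent leaves in each of the 3 ways.

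**Figure D3:**
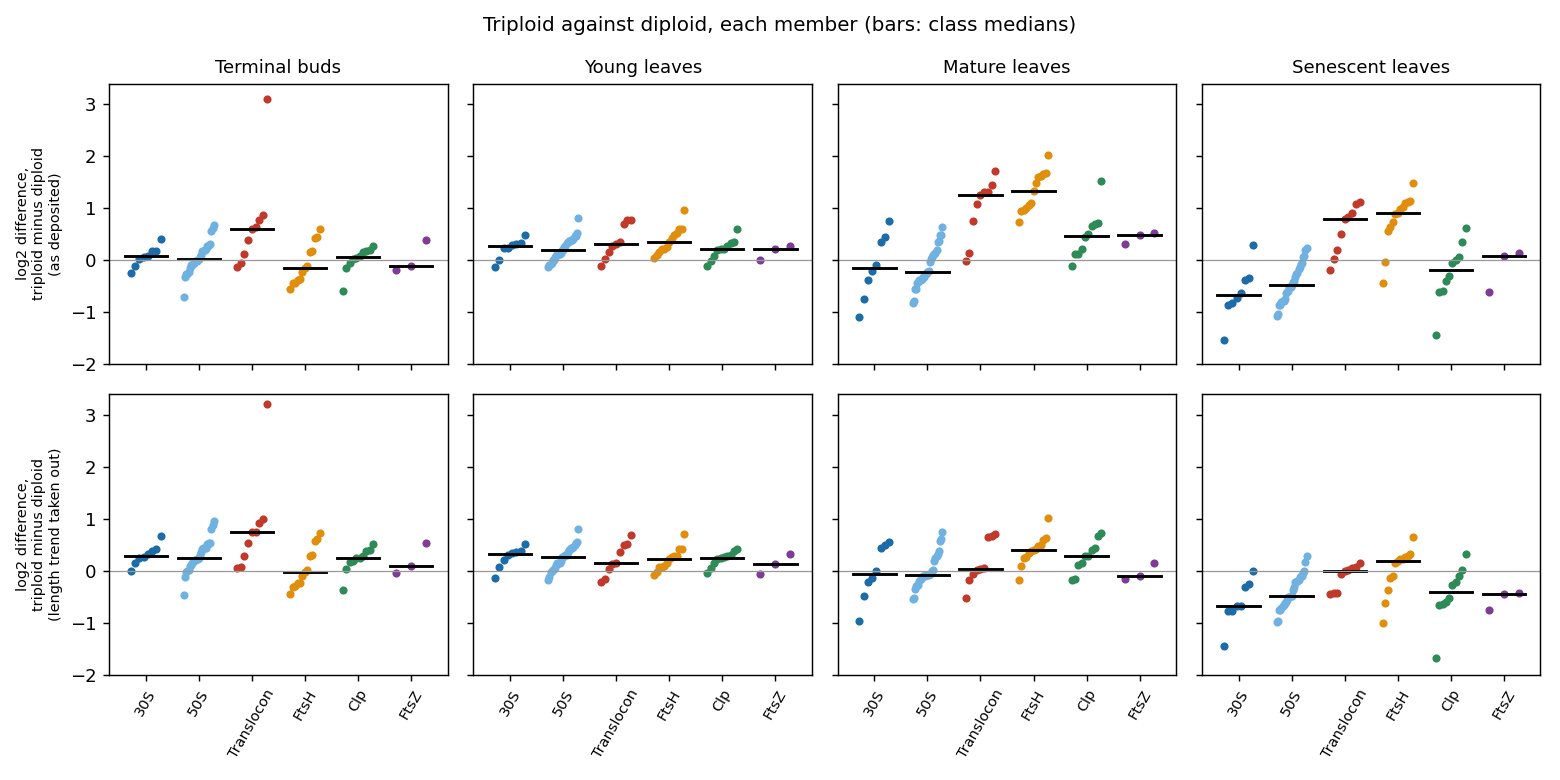
Log2 difference, triploid minus diploid, of each of the 70 members (points) by class at the 4 stages, as deposited in the upper panels and with the length trend taken out in the lower ones; black bars are class medians. The translocon and FtsH medians of mature leaves move from 1.24 and 1.32 to 0.03 and 0.40, and the 30S and 50S medians of senescent leaves stay at -0.67 and -0.49.

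The changes themselves were compared by the difference of change, triploid minus diploid. From buds to young leaves 12 members had a more positive change in the triploid and 2 a more negative one (19.4% and 6.57% of all genes). These counts were 6 and 6 after scaling (11.1% and 11.2%) and 6 and 2 in all 3 ways (10.1% and 6.55%). The total of 14 was 9 without triploid young leaf library 2 and 21 without diploid terminal bud library 1. From young to mature leaves the counts were 20 and 17 as deposited (34.9% and 16.3%), 15 and 30 after scaling (22.5% and 24.5%) and 6 and 14 in all 3 ways (13.4% and 14.3%), the 14 being 4 30S and 10 50S genes. At senescence 1 member had a more positive and 27 a more negative change in the triploid (13.6% and 12.1% of all genes), and 1 and 24 did in all 3 ways (12.3% and 10.8%). The total of 28 became 45 when the 3 libraries that stood apart were left out of the fit, although none of them is a mature or senescent leaf.

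The 30S genes rose by a median of 0.70 in the diploid and 0.71 in the triploid from buds to young leaves, with 7 of 8 called higher in each, beside 33.4% and 45.0% of all genes. After scaling the medians were 0.55 with 5 of 8 called higher and 0.35 with 4 of 8, and without the length trend 1.01 and 0.79 with 7 of 8 in each. Of all genes 26.6% and 31.1% were then higher after scaling, and 26.4% and 29.0% without the trend. Their summed level was 784 ± 34.0, 1213 ± 135, 1274 ± 18.5 and 830 ± 20.3 FPKM over the 4 stages in the diploid and 841 ± 12.7, 1409 ± 50.9, 1247 ± 27.8 and 561 ± 14.9 in the triploid. At senescence 6 of 8 fell in the diploid, with a class median of -0.72, and 7 of 8 in the triploid, with a median of -1.28. Of all genes 32.4% and 32.1% fell. The change of 7 was more negative in the triploid (median of the difference -0.55), beside 12.1% of all genes. In senescent leaves 7 of 8 were accordingly lower in the triploid, with a median of -0.68 as deposited and -0.67 without the length trend. Of all genes 20.0% were lower there as deposited.

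S31 (Eucgr.K02991, chromosome 11, 37378713 to 37379586), a small-subunit protein, had the highest mean of the 30S genes. It measured 345, 316 and 343 FPKM in diploid and 216, 187 and 197 FPKM in triploid mature leaves, and 199, 193 and 185 in diploid against 65.2, 61.7 and 69.8 in triploid senescent leaves. All 3 triploid libraries were below all 3 diploid ones at both stages. The difference was -0.74 in mature leaves (SE 0.10, adjusted p = 1.9e-06, and -0.49 without the length trend) and -1.54 in senescent leaves (SE 0.10, adjusted p = 3.4e-11), the largest deficit of a member at that stage. In buds, at 181, 185 and 188 against 170, 162 and 180 FPKM, it was not called (adjusted p = 0.38).

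S17 (Eucgr.F03039, chromosome 6, 42382542 to 42383159), the other 30S gene of highest mean, gave 135, 118 and 111 FPKM in diploid and 65.8, 65.3 and 66.8 FPKM in triploid senescent leaves, with no overlap. Its difference there was -0.86 (SE 0.09, adjusted p = 6.7e-08). It was higher in triploid buds, at 202, 193 and 189 against 152, 139 and 152 FPKM. S1 (Eucgr.H04084), the RNA-binding protein of the small subunit, took the opposite place among the 30S genes in mature leaves, with 271, 276 and 277 FPKM in the triploid and 169, 170 and 147 in the diploid. It was singled out after its values were seen, and its difference in mature leaves was 0.76 as deposited and 0.44 without the length trend. An S13-like gene on an unplaced scaffold (Eucgr.L03087) fell from buds to young leaves in the diploid by 0.82 on the log2 scale (adjusted p = 0.00022), from 58.0, 56.4 and 38.9 to 34.9, 27.0 and 23.5 FPKM. It was also the member lowest in triploid mature leaves relative to the diploid, at 21.5, 21.8 and 15.4 against 41.3, 38.8 and 47.3 FPKM (log2 -1.09, SE 0.16, adjusted p = 6.1e-06).

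The 27 50S genes made up more than any other class of the summed level, with 2415 ± 66.9, 3486 ± 460, 3480 ± 17.6 and 1873 ± 43.9 FPKM in the diploid and 2466 ± 57.5, 4189 ± 117, 2986 ± 102 and 1285 ± 84.6 FPKM in the triploid from buds to senescent leaves. In mature leaves 4 were higher and 12 lower in the triploid (42.4% and 22.6% of all genes), with a median of -0.24, which was -0.08 without the length trend. Called in all 3 ways were 1 higher, L15, and 4 lower, namely L28, L31, 1 of the L35 genes and the 50S protein named only 5. By this rule 18.9% of all genes were higher and 19.7% lower. In senescent leaves 18 of 27 were lower and 0 higher in the triploid (median -0.48, and -0.49 without the trend), beside 20.0% and 40.1% of all genes. At an unadjusted p under 0.05 limma gave 0 higher as well, and without the trend 1 was higher and 17 lower. At senescence 20 fell and 2 rose in the diploid (32.4% and 25.3% of all genes) and 25 fell in the triploid (32.1%), with class medians of -0.94 and -1.25. Their difference of change was negative for 7 and positive for 1, beside 12.1% and 13.6% of all genes.

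L11 (Eucgr.D01648, chromosome 4, 29964505 to 29968871), a protein at the base of the ribosomal stalk where translation factors bind, had the largest fall of any member at senescence in the triploid. It measured 63.7, 66.6 and 62.1 FPKM in triploid mature leaves and 14.4, 12 and 10.4 FPKM in triploid senescent leaves, a change of -2.31 (SE 0.13, adjusted p = 1e-12). In the diploid it was at 50.2, 50.8 and 49.5 and then at 19.7, 15.2 and 18.8 FPKM, a change of -1.44 (adjusted p = 3.3e-09). The triploid libraries thus began above (0.35, adjusted p = 0.026) and ended below those of the diploid (-0.51, adjusted p = 0.0022). The first difference was lost after scaling (-0.0029) and with edgeR (0.04). The second was called after scaling (-0.82), and with edgeR, on 1 diploid senescent library, it was -1.05. The difference of change was -0.86 (SE 0.19, adjusted p = 0.0016). Young leaves held the highest levels, with 129, 122 and 108 FPKM in the diploid and 161, 162 and 171 in the triploid, and the triploid libraries were above the diploid ones there as well (0.46, adjusted p = 0.014).

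L31 (Eucgr.F01878, chromosome 6, 28682558 to 28683433) stood at 318, 318 and 347 FPKM in diploid and 197, 174 and 186 in triploid mature leaves. Its levels in senescent leaves were 131, 147 and 140 against 68.1, 74.1 and 88.5 FPKM. The groups did not overlap at either stage, with differences of -0.82 (adjusted p = 8.2e-06) and -0.86 (adjusted p = 5.2e-06), or -0.54 and -0.72 without the length trend. The fall at senescence was nearly the same in both ploidies, -1.23 and -1.27, and the difference of change was -0.04 with an SE of 0.18. L21 (Eucgr.F02613, chromosome 6, 38290895 to 38294250), the 50S gene of highest mean beside L31, kept a high level late, at 235, 227 and 251 FPKM in diploid and 206, 177 and 184 FPKM in triploid senescent leaves. It differed by -0.33 there (adjusted p = 0.027), and this call was lost without the length trend (-0.21) and without any 1 of 4 of the 6 senescent libraries.

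The remaining 50S genes named by the rule show how unlike their stage courses were. L13 (Eucgr.F01365) was the member furthest below the diploid in triploid buds, at 117, 108 and 125 against 171, 185 and 219 FPKM (log2 -0.71, SE 0.11, adjusted p = 2.1e-05), and its libraries overlapped between ploidies at the next stages, young and mature. L3-2 (Eucgr.H04124) fell by 1.51 from young to mature leaves in the diploid, from 12.8, 11.9 and 13.1 to 3.82, 3.37 and 4.18 FPKM (adjusted p = 1.1e-09). The L19 gene Eucgr.B00214 was highest in buds, with 47.6 to 65.8 FPKM over both ploidies, and lowest in senescent leaves, with 8.96 to 11.9 FPKM. It was the single member whose change at senescence was more positive in the triploid (0.42, SE 0.14, adjusted p = 0.025), and the call was lost on leaving out any of 5 libraries, among them diploid senescent leaf library 1 (0.36). The second L19 gene, Eucgr.D02125, had a mean of 118 FPKM against 28.6 for the first. The L18 gene Eucgr.L02689, on an unplaced scaffold, stayed at or under 3.1 FPKM and was listed at 0 in 4 libraries. It was called lower in young leaves than in buds in the triploid (0.728, 1.09 and 0.346 against 3.1, 1.86 and 1.74 FPKM), a call that neither edgeR nor DESeq2 made on the counts. L18 has 2 further genes at means of 44.9 and 46.6 FPKM, and near-identical copies may share reads.

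As deposited, more translocon genes were higher than lower in the triploid at each stage, and without the length trend 0 were higher and 3 lower in senescent leaves. Their summed level was 134 FPKM in diploid and 188 in triploid buds, 156 against 210 in young and 75.2 against 160 in mature leaves and 67.1 and 118 in senescent leaves. In buds 5 of 9 were higher (median 0.60, and 0.75 without the length trend), in young leaves 3 (0.31 and 0.16), in mature leaves 7 (1.24 and 0.03) and in senescent leaves 5 (0.80 and -0.01), with 0 lower at any stage as deposited. Of all genes 14.0%, 11.4%, 42.4% and 40.1% were higher at these stages. The 5 in buds included TOC120, whose diploid bud values are given below. Another of them was a gene described as TOC159 (Eucgr.B01320) with a mean of 1.14 FPKM over all libraries. At an unadjusted p under 0.05 limma gave 0 lower as well, while edgeR and DESeq2 each called 1 lower in mature and 1 in senescent leaves. The excess in buds and young leaves was thus present in all 3 ways for 5 and 3 genes, and that of mature leaves for 3, which were TOC75-3 and both TIC110 genes. Of all genes 14.0%, 9.26% and 18.9% were higher in all 3 ways at these stages. In senescent leaves 0 were called in all 3 ways. Within the diploid 7 of 9 fell from young to mature leaves (median -1.0, beside 55.6% of all genes), and in the triploid 4 fell and 3 rose (median -0.24, beside 42.8% and 26.9%). Without the length trend 5 fell and 2 rose in the diploid (median -0.47), 4 fell and 3 rose in the triploid (median -0.28), and the difference of change had a median of -0.01 with 1 higher and 3 lower.

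The gene described as TOC159 (Eucgr.H01158, chromosome 8, 13382195 to 13386912), in *Arabidopsis* the main receptor for precursors of photosynthetic proteins, carries the KEGG orthology entry K00031 in the table, which does not go with that description. It measured 16.7, 14.9 and 10.8 FPKM in diploid and 22, 22.6 and 22.4 FPKM in triploid buds. In young leaves it was at 12.1, 16.1 and 20.6 against 27.7, 28.5 and 27.6 FPKM, and in mature leaves at 17.2, 20.5 and 15.8 against 39.6, 46.1 and 44.9. Senescent leaves held 14.8, 16.3 and 14.6 in the diploid and 36.0, 31.9 and 31.7 in the triploid. The triploid libraries were above the diploid ones at all 4 stages, by 0.65 (adjusted p = 0.001), 0.77 (0.00052), 1.24 (2.6e-07) and 1.07 (1.9e-06) on the log2 scale. Without the length trend the first and second differences were 0.76 and 0.50 and still called, while those of mature and senescent leaves were -0.06 and 0.01 and not called. Its implied length of 4685 bases was the longest of the translocon genes.

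TOC34 is the smaller GTPase receptor, and the genes described as such followed separate courses. The KEGG orthology entry of the first, K04564, does not go with its description either. The first (Eucgr.A02951, chromosome 1, 44564601 to 44569680) fell with each stage in both ploidies, from 73.4, 79.8 and 73.0 FPKM in diploid buds to 54.5, 51.9 and 52.1 in young, 18.6, 19.1 and 19.7 in mature and 15.3, 15.2 and 14.3 in senescent leaves. Its fall from young to mature leaves was -1.42 in the diploid (adjusted p = 8.4e-12) and -1.60 in the triploid (adjusted p = 1.2e-12), the largest fall of a member at that step in the triploid. It was not called between the ploidies at any stage as deposited, but was called lower in triploid mature and senescent leaves without the length trend (-0.53 and -0.42). The second (Eucgr.K00109, chromosome 11) rose from buds to young leaves, where it reached 15.6, 13.5 and 15.1 FPKM in the diploid and 19.0, 19.5 and 18.5 in the triploid. It then dropped to 1.74, 1.36 and 1.56 FPKM in diploid senescent leaves, a change of -1.62 from mature leaves (SE 0.13, adjusted p = 3.9e-10) and the largest fall of a member at that step in the diploid.

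TOC120 (Eucgr.G01765, chromosome 7, 33945601 to 33950172), a relative of TOC159 tied in *Arabidopsis* to precursors of non-photosynthetic proteins, was nearly missing from some diploid bud libraries. It stood at 0.0385, 13.1 and 0.02 FPKM in diploid buds, which were 11, 3450 and 6 counts, and at 20.4, 19.3 and 21.0 FPKM in triploid buds, or 4882, 4581 and 4755 counts. Diploid bud libraries 1 and 3 thus held almost none of it while library 2 was nearer to the triploid, and no other gene of the table was at or under 0.1 FPKM in libraries 1 and 3 and above 5 in library 2. The difference in buds was 3.11 (SE 0.56, adjusted p = 0.00011), 4.37 without library 2, 2.48 without library 1 and 2.47 without library 3. With edgeR on the counts it was 2.32 and not called (adjusted p = 0.1). In diploid young leaves the gene was at 14.3, 20.2 and 23.4 FPKM, beside 23.8, 24.3 and 23.0 in the triploid. The cause of the low values was not tested, and the rise from buds to young leaves in the diploid (3.02) and the difference of change at that step (-2.80) rest on them.

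Channel and inner envelope genes were singled out after their values were seen. TOC75-3 (Eucgr.B02312), the outer envelope channel, was at 22.1, 21.9 and 20.5 FPKM in diploid and 37.2, 36.4 and 37.9 FPKM in triploid buds. In mature leaves it was at 10.2, 8.45 and 8.64 against 24.5, 24.4 and 23.0 FPKM. The triploid libraries were above at both stages, by 0.76 and 1.31, and by 0.91 and 0.65 without the length trend. TIC110 (Eucgr.B04013), the inner envelope protein to which stromal chaperones are recruited, was at 5.47, 5.24 and 4.12 FPKM in diploid and 17.3, 20.4 and 17.8 in triploid mature leaves, a difference of 1.72 (0.72 without the trend). Its value in diploid young leaves ran from 8.22 to 18.9 FPKM, the lowest and highest being 2 of the libraries that stood apart.

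The summed level of the FtsH genes took another course in each ploidy. It was 145, 286, 568 and 1002 FPKM in the diploid and 124, 347, 1081 and 890 FPKM in the triploid from buds to senescent leaves. The diploid thus reached its highest sum in senescent leaves (995 to 1014 FPKM) and the triploid in mature leaves (1041 to 1103 FPKM). This sum was carried by a pair of genes, FTSH 2 and a gene described as FTSH, since 11 of the 13 tested peaked in young leaves in the diploid and 2 in senescent leaves. In the triploid 4 peaked in young, 7 in mature and 2 in senescent leaves. All 13 tested were higher in triploid mature leaves (median 1.32, and 0.40 without the length trend, with 11 called in all 3 ways). At this stage 42.4% of all genes were higher in the triploid as deposited and 18.9% in all 3 ways. The 11 included the mitochondrial FtsH genes. In senescent leaves 11 were higher and 1 lower (median 0.92, and 0.19 without the trend), and 5 higher and 1 lower were called in all 3 ways. Of all genes 40.1% were higher and 20.0% lower there, and 21.4% and 18.8% in all 3 ways.

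FTSH 2 (Eucgr.A01933, chromosome 1, 34633225 to 34637502), the thylakoid protease subunit whose loss gives variegated leaves in *Arabidopsis*, had the highest level of the class. It measured 66.0, 64.8 and 54.1 FPKM in diploid buds, 90.7, 113 and 131 in young, 344, 352 and 298 in mature and 637, 625 and 624 in senescent leaves. In the triploid the values were 44.6, 46.8 and 43.3, then 122, 136 and 126, then 537, 567 and 556, then 488, 459 and 434 FPKM. The libraries of the ploidies overlapped in young leaves only, and the triploid was lower in buds, higher in mature leaves and lower again in senescent leaves. The rise from young to mature leaves was the largest of any member in each ploidy, 1.57 (adjusted p = 8.6e-12) in the diploid and 2.10 (adjusted p = 5.6e-14) in the triploid. At senescence the diploid rose by 0.93 (SE 0.10, adjusted p = 8.9e-08) while the triploid fell by 0.27 (adjusted p = 0.032), a call lost without the length trend (-0.19) and without any 1 of 4 libraries. The difference of change was -1.19 (SE 0.15, adjusted p = 3.3e-06) and stayed at -1.10 without the trend. The higher level in triploid mature leaves, 0.74 as deposited, was 0.10 and not called without the trend.

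The second gene, described only as FTSH (Eucgr.F01206, chromosome 6, 16241671 to 16244956), ran alongside. Its levels in mature leaves were 197, 186 and 149 FPKM in the diploid and 345, 356 and 367 FPKM in the triploid. In senescent leaves they were 321, 308 and 317 in the diploid and 326, 307 and 288 in the triploid, where the groups overlapped. The change at senescence was 0.84 in the diploid (adjusted p = 6.9e-07) and -0.22 in the triploid (adjusted p = 0.091), and the difference of change was -1.05 (SE 0.15, adjusted p = 2.2e-05). In mature leaves the triploid was 1.01 higher (adjusted p = 7.7e-08), or 0.34 without the length trend.

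The FTSHI genes code for members that lack protease activity, and in *Arabidopsis* several of them join FTSH 12 in an inner envelope complex that drives import. FTSHI 2 (Eucgr.D02583, chromosome 4) had the largest ploidy difference of any member in mature and in senescent leaves. It was at 2.39, 2.05 and 1.59 FPKM in diploid and 10.8, 11.7 and 11.3 in triploid mature leaves (log2 2.03, SE 0.20, adjusted p = 2.9e-08, and 1.02 without the length trend). In senescent leaves it was at 2.02, 3.37 and 2.65 against 11.1, 8.55 and 8.25 FPKM (1.49, adjusted p = 1.9e-06, and 0.65 without the trend). No library of the triploid reached down to the diploid at either stage. FTSHI 5 (Eucgr.H04217, chromosome 8) was the member with the largest excess in triploid young leaves, at 8.33, 8.41 and 7.02 against 2.24, 3.35 and 5.82 FPKM (0.96, SE 0.17, adjusted p = 0.00037).

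FTSHI 4 (Eucgr.H04960, chromosome 8) showed the largest rise from buds to young leaves in the triploid, from 1.31, 1.31 and 1.53 to 7.44, 8.61 and 7.61 FPKM (1.90, SE 0.20, adjusted p = 4.4e-08). FTSH 12 (Eucgr.F04462, chromosome 6) had the most positive difference of change at the same step (1.05, SE 0.30, adjusted p = 0.012). It went from 1.62, 1.39 and 1.36 to 5.19, 6.77 and 4.71 FPKM in the triploid. In the diploid it was at 2.56, 2.81 and 2.53 and then at 2.17, 3.36 and 6.29 FPKM, with young leaf libraries on both sides of the bud values. All of the 5 FtsH members called in all 3 ways for this difference had the more positive change in the triploid. Of all genes 10.1% were positive and 6.55% negative in all 3 ways. The FtsH counts were 5 positive and 1 negative after scaling, and 7 and 3 without the length trend. As deposited, the mitochondrial FtsH genes, 2 for FTSH 10 and 1 for FTSH 4, were the only FtsH genes higher in triploid buds (0.42 to 0.60). In the same values 4 plastid FtsH genes were lower there, of which 0 in all 3 ways. Of all genes 14.0% were higher and 34.9% lower. After scaling 4 FtsH genes were higher and 0 lower, and without the length trend 5 were higher and 4 lower.

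The Clp genes separated the ploidies at senescence. Their summed level was 380, 527, 484 and 751 FPKM in the diploid and 370, 600, 705 and 589 FPKM in the triploid over the 4 stages. From mature to senescent leaves 6 of 10 rose and 1 fell in the diploid (median 0.44), while 0 rose and 7 fell in the triploid (median -0.34). Of all genes 25.3% rose and 32.4% fell in the diploid, and 29.0% and 32.1% in the triploid. Without the length trend 7 rose and 1 fell in the diploid, and 1 rose and 7 fell in the triploid. In limma, edgeR and DESeq2 alike 0 rose in the triploid as deposited, and 0 did at an unadjusted p under 0.05 in limma. Their difference of change was negative for 7 of 10, beside 12.1% of all genes, and all 7 were called in all 3 ways (10.8% of all genes). In senescent leaves 2 were higher and 5 lower in the triploid (40.1% and 20.0% of all genes). Of the lower ones, 4 were called in all 3 ways, namely ClpP5, ClpP3, ClpR2 and the mitochondrial ClpP2.

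ClpP5 (Eucgr.H01006, chromosome 8, 11721113 to 11725085), a catalytic subunit of the protease core, was 1 of the 2 Clp genes of highest mean. It stood at 70.3, 71.8 and 67.3 FPKM in diploid and 77.3, 73.8 and 76.0 FPKM in triploid mature leaves. In senescent leaves it was at 222, 238 and 231 FPKM in the diploid and 83.5, 82.0 and 88.0 in the triploid. The mature libraries thus lay within a narrow range in both ploidies, and the 3 diploid senescent libraries stood above all the others of the series. The change was 1.71 in the diploid (SE 0.12, adjusted p = 3.6e-11), the largest rise of a member at this step, and 0.16 in the triploid (adjusted p = 0.27). The difference of change was -1.55 (SE 0.17, adjusted p = 6.1e-07), the most negative of all members, and -1.53 after scaling and -1.52 without the length trend. With edgeR on counts, on 1 diploid senescent library, it was -1.69. In senescent leaves the triploid was 1.44 lower on the log2 scale (adjusted p = 1.5e-09).

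ClpR1 (Eucgr.I01073, chromosome 9, 21647351 to 21650847), an inactive subunit of the same core and the other Clp gene of highest mean, was at 111, 115 and 101 FPKM in diploid and 161, 178 and 179 in triploid mature leaves. In senescent leaves it was at 151, 154 and 151 in the diploid and 150, 142 and 145 in the triploid. It rose by 0.48 in the diploid (adjusted p = 0.00039) and fell by 0.24 in the triploid (adjusted p = 0.046, a call lost without any 1 of several libraries). The difference of change was -0.72 (SE 0.15, adjusted p = 0.00075). The ClpC-type chaperone CD4B (Eucgr.K02198), singled out after its values were seen, went from 46.0, 46.7 and 39.0 to 59.7, 62.9 and 58.6 FPKM in the diploid and from 120, 133 and 129 to 99.5, 92.9 and 86.6 FPKM in the triploid. Its excess of 1.52 in triploid mature leaves was 0.11 without the length trend, and it is the longest member at 5177 bases, whereas its difference of change of -0.90 was -0.64 without the trend and still called.

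**Figure D4:**
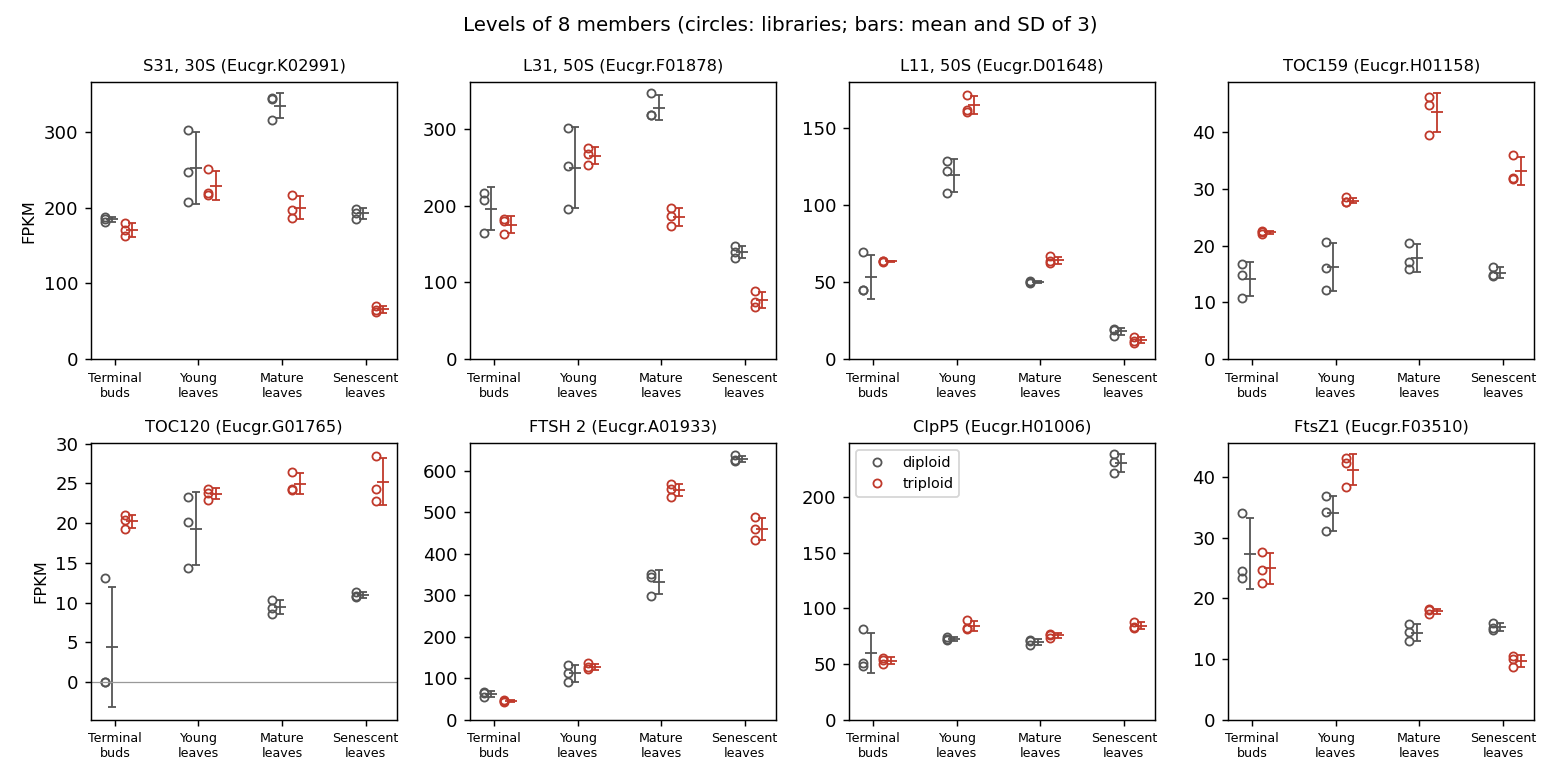
FPKM of 8 members at the 4 stages, with circles for single libraries and a tick with whiskers for the mean and SD of 3, grey for diploid and red for triploid. ClpP5 stands at 222 to 238 FPKM in diploid senescent leaves and under 90 FPKM in all other libraries, and TOC120 is near 0 in 2 diploid bud libraries.

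The 3 FtsZ genes all had their highest mean in young leaves in both ploidies. FtsZ1 (Eucgr.F03510, chromosome 6, 46299645 to 46303731) was at 31.1, 36.8 and 34.3 FPKM in diploid and 38.3, 42.3 and 43.1 in triploid young leaves. It fell at the next step by 1.19 and 1.16 on the log2 scale (adjusted p = 6.5e-09 and 1.1e-08), to 14.5, 15.7 and 13.0 and to 17.4, 18.2 and 18.1 FPKM. At senescence the diploid kept 15.2, 16.0 and 14.7 FPKM, a change of 0.09 (adjusted p = 0.56), while the triploid went to 10.5, 8.64 and 9.94 FPKM, a change of -0.83 (adjusted p = 2.3e-06). The difference of change was -0.91 (SE 0.17, adjusted p = 0.00026). The FtsZ2-1 genes, Eucgr.A02664 (chromosome 1, 41903292 to 41910131) and Eucgr.K02046 (chromosome 11, 27419973 to 27426133), fell at senescence in both ploidies, by 0.97 and 1.04 in the diploid and by 1.37 and 1.45 in the triploid. Eucgr.A02664 was at 7.91, 8.40 and 8.12 FPKM in diploid and 10.4, 8.68 and 8.06 in triploid senescent leaves, and Eucgr.K02046 at 1.5, 1.03 and 1.68 against 1.68, 1.17 and 1.76, and neither was called between the ploidies there as deposited or after scaling. Without the length trend Eucgr.K02046 was called lower in the triploid (-0.43, adjusted p = 0.0063) and Eucgr.A02664 was not (-0.45, adjusted p = 0.068).

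**Figure D5:**
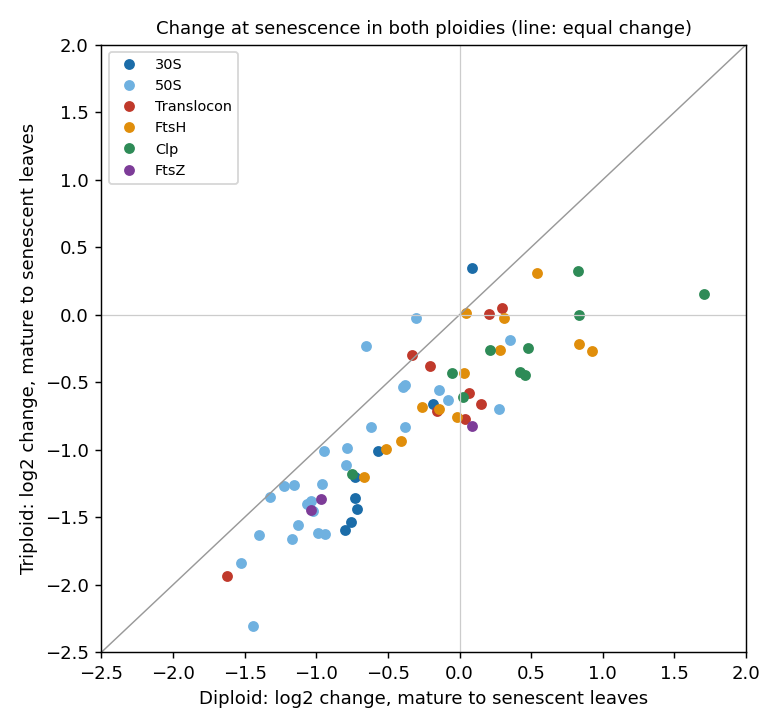
Log2 change from mature to senescent leaves of each of the 70 members in the diploid (horizontal axis) and the triploid (vertical axis), coloured by class, with a diagonal line of equal change. Most points lie below the line, with ClpP5 at 1.71 and 0.16 furthest to the right and L11 at -1.44 and -2.31 lowest.

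The light-harvesting markers were also lower in triploid senescent leaves, while the senescence genes were split when taken gene by gene. The 14 light-harvesting genes summed to 4412 to 4798 FPKM in diploid and 2678 to 2954 in triploid senescent leaves, from 20590 to 22070 and 22870 to 25960 in mature leaves. Of these, 13 fell in each ploidy, and the change of 12 was more negative in the triploid (median of the difference -0.77). Of all genes 32.4% fell in the diploid and 32.1% in the triploid. The change was more negative in the triploid for 12.1% of all genes and more positive for 13.6%. The summed level of the senescence genes given above was likewise lower in the triploid, but by gene their difference of change was more positive for 4 and more negative for 2 of the 8 tested (median 0.49). The stage reached by the leaves of each ploidy could differ, and its part in the ribosomal, FtsH and Clp results in mature leaves and at senescence was not tested.

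Other genes for plastid gene expression, taken by fixed word patterns from the descriptions, gave a background for the members. Of 11 genes for plastid transcription, 9 were higher and 1 lower in triploid mature leaves (median 1.03, and 7 and 1 with a median of 0.51 without the length trend, where 42.4% of all genes were higher as deposited and 24.8% without the trend). All 11 rose from buds to young leaves in the triploid and 9 fell at senescence there, beside 45.0% and 32.1% of all genes. Of 8 plastid translation factors 4 were higher in triploid mature leaves and 4 in senescent leaves (medians 0.50 and 0.24), near the 42.4% and 40.1% of all genes, and without the trend 4 and 2 were (medians 0.09 and 0.10). Plastid chaperones had 8 of 14 tested higher and 4 lower in mature leaves, thylakoid targeting 7 of 8 higher, other plastid division genes 6 of 7 higher and other plastid proteases 5 of 7 higher, all with median implied lengths over 2000 bases. Without the length trend these became 7 higher and 5 lower, 4 higher, 2 higher and 3 higher. The 110 cytosolic ribosomal protein genes tested, with a median implied length of 1029 bases, had 56 higher and 5 lower in triploid buds (median 0.24) and 13 higher and 64 lower in mature leaves (median -0.33, and 20 and 42 with a median of -0.13 without the trend). Of all genes 14.0% were higher and 34.9% lower in buds. In mature leaves 42.4% and 22.6% were as deposited, and 24.8% and 31.7% without the trend. At senescence the difference of change of the cytosolic genes was called for 2 in each direction (median 0.09), and for 1 and 10 without the trend, where that of the 30S plastid genes was negative for 7 of 8. The 50S plastid genes went less far. In all 3 ways the difference was negative for 6 of 8 30S and 5 of 27 50S genes, beside 10.8% of all genes. Cytosolic ribosomal genes were highest in buds (44740 to 63690 FPKM summed) and fell from there, whereas the plastid ones peaked in leaves.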

How the data were processed

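RNA from 24 libraries (8 groups of 3) was sequenced in paired-end reads per the labels, and the submitters' processing notes name HISAT2 2.0, StringTie 1.3.0 and Bowtie 0.12.2, along with a mouse genome build whose role is not given. The labels state poly(A) selection and the study's methods a stranded total RNA kit and RPKM, where the table has FPKM. FPKM and whole-number read counts per gene were deposited by the authors in a table with *Eucalyptus grandis* v2.0 gene identifiers, and the coordinates given are those of that table. The counting step, strand setting and filters were not given in the sources used here. Counts of 22 libraries were used, and 2 columns of per-sample values were not used because their names matched no labelled sample. FPKM at or under 0.0001 was read as 0.

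Members were found by their description. Differences were tested with limma 3.58.1 (trend, R 4.3.3) on log2(FPKM + 1) over 8 group means, without a replicate block, and fold changes are on that scale, which understates those of low genes. Genes named are the 2 highest of each class, all FtsZ genes and the most strongly changed called members of each comparison, with exceptions marked. Members and lists were chosen with earlier results of these data known. Alternatives were median-ratio scaling over 11530 genes, a pseudocount of 0.1, no filter, edgeR 4.0.16 and DESeq2 1.42.0 on counts, a replicate block, and leaving out libraries. Taking out a loess trend on implied gene length (span 0.4) in each library, and calling in all 3 ways, were added after seeing the data, as was scaling together with leaving out the 3 libraries that stand apart. The range of a gene's implied length over libraries had a median of 1.87% of its middle value. The scripts were tested on simulated data.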

Additional observations from a re-analysis of the deposited data

Results flagged for a closer look

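The change between stages was compared between the ploidies by the test of the difference itself, the triploid change minus the diploid change in limma, over 70 members. From terminal buds to young leaves it was called positive for 12 members and negative for 2, from FTSH 12 (Eucgr.F04462) at 1.05 to TOC120 (Eucgr.G01765) at -2.80 on the log2 scale, the latter resting on near absence from 2 of 3 diploid bud libraries. Over all genes 19.4% were called positive and 6.57% negative at this step, and after scaling the members' counts were 6 and 6. From young to mature leaves it was called positive for 20 and negative for 17, from FTSHI 2 (Eucgr.D02583) at 1.44 to the S13-like gene (Eucgr.L03087) at -1.09, beside 34.9% and 16.3% of all genes. After scaling the balance turned to 15 and 30, and in all 3 ways it was 6 and 14. At senescence it was called positive for 1, the L19 gene Eucgr.B00214 at 0.42, and negative for 27, with ClpP5 (Eucgr.H01006) at -1.55, beside 13.6% and 12.1% of all genes, and 1 and 24 in all 3 ways.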

How the results depend on the processing

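The count of members called in terminal buds, triploid against diploid, was 23 and became 36 after scaling, 47 without the length trend, 37 without the 3 libraries that stand apart, 42 with both of scaling and this, and 35 with DESeq2. In young leaves 26 became 17 with edgeR, 17 with scaling and the 3 libraries left out, and 13 with a replicate block within ploidy. For the difference of change from buds to young leaves 14 became 8 with edgeR and ranged from 9 to 21 on leaving out 1 library, and at senescence 28 became 45 without the 3 libraries. The other counts stayed within 1.5 times, and the cause of these shifts was not tested. Same-numbered libraries correlated in both directions (r from -0.268 to 0.13 over 12 pairs between ploidies and from -0.455 to 0.338 over 18 between stages), and the main fit had no block. The lowest and highest r were both between stages of the diploid, so shared structure there is not excluded. With a block shared by both ploidies the counts were 23 in buds and 24 in young leaves. Of 122 named changes, 23 lost their call with edgeR, 23 with DESeq2, 15 after scaling and 14 without the length trend. Without the trend the sign turned for FTSH 2 (Eucgr.A01933, difference from young to mature leaves, -0.045), FtsZ2-1 (Eucgr.A02664, young to mature leaves in the diploid, 0.13), TOC159 (Eucgr.H01158, mature leaves, -0.056) and FtsZ2-1 (Eucgr.K02046, mature leaves, -0.11). With DESeq2 it turned for Eucgr.A02664 (0.0046) and FtsZ1 (Eucgr.F03510, mature leaves, -0.092), the latter also after scaling (-0.035) and with the 3 libraries left out too (-0.035). With edgeR and DESeq2, diploid senescent leaves had 1 library, assumed to vary like the other groups.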
